A study of Mus musculus with 4 samples.

Results

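The 8 genes described here bear on fatty acid use, and most serve the uptake and burning by colon epithelium of the butyrate that gut bacteria make. They were chosen by symbol, and each of the 8 matched exactly 1 of the 55450 genes in the files. Their levels were followed from the crypt base to the surface, in other cell types, and after dextran sulfate sodium (DSS), a sulfated polysaccharide that injures the colon lining and is used to cause colitis in mice. The DSS mice drank 3% DSS for 2 days and the control mice drank clean water. All mice were 7 weeks old and free of specific pathogens, and the middle of the colon was dissociated for droplet-based single-cell sequencing of transcript 3' ends. There were 2 DSS libraries (DSS 1 and DSS 2) and 2 control libraries (control 1 and control 2). The labels do not say that libraries of a group came from separate animals, so p-values measure the spread between libraries, which may be technical.

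As background, butyrate enters colonocytes through Slc5a8 (SMCT1), which carries it in together with sodium, and Slc16a1 (MCT1), which carries it together with a proton. In mitochondria Acads, the short-chain acyl-CoA dehydrogenase, takes the first oxidation step, and Acat1, acetoacetyl-CoA thiolase, splits and joins the last carbon units. Part of the acetyl-CoA can become ketone bodies, of which Bdh1 interconverts acetoacetate and 3-hydroxybutyrate. Cpt1a admits long-chain fatty acids to mitochondria, Pdk4 restrains the entry of pyruvate into the citric acid cycle, and Angptl4 is a secreted inhibitor of lipoprotein lipase. Cpt1a, Pdk4 and Angptl4 are textbook targets of the fatty acid receptors called PPARs.

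On GRCm38 with the GENCODE M21 annotation, all 8 are protein-coding genes. Slc5a8 (ENSMUSG00000020062) lies on chromosome 10 from 88885992 to 88929515 and Slc16a1 (ENSMUSG00000032902) on chromosome 3 from 104638668 to 104658462. Acads (ENSMUSG00000029545) lies on chromosome 5 from 115110299 to 115119346, Acat1 (ENSMUSG00000032047) on chromosome 9 from 53580522 to 53610382, and Bdh1 (ENSMUSG00000046598) on chromosome 16 from 31422280 to 31458901. Cpt1a (ENSMUSG00000024900) lies on chromosome 19 from 3322334 to 3385733, Pdk4 (ENSMUSG00000019577) on chromosome 6 from 5483351 to 5496309, and Angptl4 (ENSMUSG00000002289) on chromosome 17 from 33773750 to 33781830. Slc16a1 shares its locus with the same-strand genes Gm43581 and Gm43585, so the division of reads among these is uncertain. Bdh1 overlaps Gm15743, which is annotated on the opposite strand.

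The bases just upstream of both butyrate carriers and of the first oxidation enzyme are shown because these 3 windows lie wholly outside the annotated genes. They are the 250 bases before the RefSeq start (GRCm38.p6), 5' to 3' on the gene's strand, with matches of the motifs named below in capitals. The Slc5a8 window is chr10:88885742-88885991 (plus strand), the Slc16a1 window is chr3:104638414-104638663 (plus strand), and the Acads window is chr5:115119347-115119596 (minus strand).
Slc5a8: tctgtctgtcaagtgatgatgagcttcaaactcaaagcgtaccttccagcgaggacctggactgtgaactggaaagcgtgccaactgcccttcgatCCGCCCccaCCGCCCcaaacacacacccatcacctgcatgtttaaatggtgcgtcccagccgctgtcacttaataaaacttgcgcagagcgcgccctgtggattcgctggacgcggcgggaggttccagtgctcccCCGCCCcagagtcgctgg
Slc16a1: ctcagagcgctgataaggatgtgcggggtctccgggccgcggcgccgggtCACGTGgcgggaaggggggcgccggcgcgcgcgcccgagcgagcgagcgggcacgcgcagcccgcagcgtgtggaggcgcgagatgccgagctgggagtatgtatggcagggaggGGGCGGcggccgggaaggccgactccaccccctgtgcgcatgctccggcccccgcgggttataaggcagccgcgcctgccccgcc
Acads: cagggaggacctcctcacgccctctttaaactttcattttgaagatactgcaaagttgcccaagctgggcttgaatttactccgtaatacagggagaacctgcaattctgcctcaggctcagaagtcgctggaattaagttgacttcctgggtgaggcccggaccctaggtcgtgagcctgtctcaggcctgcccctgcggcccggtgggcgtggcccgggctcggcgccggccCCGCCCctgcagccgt

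A GC box (GGGCGG on either strand) matched 3 times upstream of Slc5a8, from bases -154, -145 and -18, and once each upstream of Slc16a1 (-85) and Acads (-16). An E-box (CACGTG) matched once upstream of Slc16a1, at -200. Over the 32851 windows of this length in the RefSeq table, 32.7% held the GC box and 6.02% the E-box. The table held 7 windows for 6 of the 8 genes, 2 of them for Bdh1, and the GC box lay in 4 of the 7 (Cpt1a also). The nuclear receptor half-site AGGTCA matched upstream of Cpt1a alone, at -94, against 14.0% of all windows. The PPAR direct repeat, a tandem pair of that half-site, matched in 0 of the 7 and in 0.0335% of all windows. The CDX motif TTTATG and the TATA motif TATAAA matched in 0 of the 7, against 10.8% and 12.4% of all windows. The cyclic AMP element TGACGTCA matched in 0, against 1.55%, and the glucocorticoid element in 0, against 0.387%. All motifs were searched on both strands, and no match overlapped another.

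The deposited tables held 49851 barcodes, of which 42449 were kept, and 28 to 41 barcodes were shared by any pair of libraries. Kept cells had a median of 4736 to 6305 UMIs (unique molecular identifiers, each a counted transcript) per library, and the 8 genes together contributed 33977 and 62751 UMIs in DSS 1 and DSS 2 against 58689 and 50346 in control 1 and control 2. Clustering gave 38 clusters, of which 33 took a cell type name from marker genes, in 20 classes. None of the 8 genes was among the 2000 genes used to cluster. Levels are given as CPM, the UMIs of a gene summed over the cells of a class in a library and scaled to the same total. They compare cells for 1 gene and not 1 gene with another. Fewer transcripts per cell and fewer cells that carry the transcript cannot be told apart in such sums.

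The absorptive epithelium fell into clusters that follow the crypt. Cluster 10 was led by Lgr5 and Ascl2, markers of crypt-base stem cells, and cluster 18 by genes of dividing cells, and together they form the epithelial progenitors. Cluster 2, with Guca2a and Selenbp1 among its leading genes, and cluster 0, with Duox2 and Aqp8, form most of the control colonocytes. Cluster 9 was led by Sult1c2 and Gsdmc3, with the colonocyte marker Aqp4 also among its leading genes. It reached the 3 markers needed for a name in no class and stayed unnamed. Its summed colonocyte markers lay at 10074 and 8806 CPM in the DSS libraries and at 7840 and 11230 CPM in the control libraries. That lies between the progenitors, at 3708 and 7071 CPM in DSS and 1460 and 3064 CPM in control, and the colonocytes, at 29334 and 37481 CPM in DSS and 41159 and 42351 CPM in control. These 5 clusters (10, 18, 9, 2 and 0) are compared below from the crypt base to the surface. In that comparison highest and lowest mean among these 5 clusters. Cells were unevenly spread over the libraries. Cluster 10 held 15 and 44 cells in DSS 1 and DSS 2 against 1155 and 436 in control 1 and control 2. Cluster 8, a colonocyte cluster with Ly6g and Reg3b among its leading genes, held 105 and 1523 cells in DSS 1 and DSS 2 against 6 and 155 in control 1 and control 2. It made up 60.2% of DSS 2 colonocytes. It is not among the 5 clusters compared, and levels of the 8 genes in it are not given here.

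Slc5a8, the sodium-coupled butyrate carrier, was highest between crypt base and surface. In the Sult1c2-led cluster it stood at 301 and 312 CPM in DSS 1 and DSS 2 and at 345 and 298 CPM in control 1 and control 2. In the Lgr5-led cluster it stood at 149.8 and 199.9 CPM in DSS and 137 and 128 CPM in control, and in the Aqp8-expressing surface cluster at 137 and 125 CPM in DSS and 133 and 116 CPM in control. The Sult1c2-led cluster was the highest of these 5 clusters in each of the 4 libraries, 2.19- and 2.50-fold above the surface cluster in DSS and 2.61- and 2.58-fold in control. Hormone-secreting enteroendocrine cells, at 479 and 289 CPM in DSS and 354 and 302 CPM in control, lay above that cluster in 3 libraries and below it in DSS 2, with as few as 11 cells in a library.

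Slc16a1, the proton-coupled carrier, was highest later on the path to the surface. In the Guca2a-expressing cluster it stood at 187 and 189.7 CPM in DSS and 213 and 244 CPM in control, the highest of the 5 clusters in each library. The Sult1c2-led cluster followed with 171 and 157 CPM in DSS and 118 and 145 CPM in control. In the Lgr5-led cluster it stood at 89.9 and 129 CPM in DSS and at 40.2 and 71.6 CPM in control. The cycling cluster was the lowest of the 5 in all 4 libraries, at 69.1 and 103 CPM in DSS and 36.2 and 55.4 CPM in control. Both carriers were detected in all 5 clusters of all 4 libraries, with the highest Slc5a8 1 cluster before the highest Slc16a1. Bsg, the chaperone that brings MCT1 to the membrane, was highest in the same cluster as Slc16a1 in all 4 libraries, at 973 and 1057 CPM in DSS and 971 and 877 CPM in control.

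Acads and Acat1 were both lowest at the surface, in each of the 4 libraries. Acads was highest in the Sult1c2-led cluster in all 4 libraries, at 268 and 262 CPM in DSS and 328 and 231 CPM in control. In the surface cluster it stood at 135 and 141 CPM in DSS and 85.7 and 96.9 CPM in control. Acat1 was highest in the cycling or the Lgr5-led cluster in every library. In the cycling cluster it stood at 240.1 and 221 CPM in DSS and 231 and 201 CPM in control, and in the surface cluster at 54.5 and 42.2 CPM in DSS and 13.9 and 22.8 CPM in control. Angptl4 aside, the Sult1c2-led cluster lay above the surface cluster by more than for any other member, with ratios of 3.26 and 4.82 in DSS and 15.8 and 7.30 in control. The Angptl4 ratio, from few UMIs, was 0.360 and 12.5 in DSS and 33.0 in control 2, with none in control 1.

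Bdh1, the ketone body enzyme, was highest in the lower part of the path, in the Sult1c2-led cluster in 3 libraries and in the Lgr5-led cluster in DSS 1. It stood at 92.2 and 102 CPM in DSS and 98.5 and 104 CPM in control in the Sult1c2-led cluster, and at 39.7 and 42.4 CPM in DSS and 22.7 and 34.0 CPM in control in the surface cluster. Acsm3, a mitochondrial medium-chain acyl-CoA synthetase, stood at 4.16 and 3.73 CPM in DSS and 7.21 and 4.20 CPM in control at the surface, against 166 and 205 CPM in DSS and 199 and 190.4 CPM in control in the Sult1c2-led cluster. The leading genes of that cluster include Acsm3, so its level there is part of how the cluster is described.

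The 3 PPAR target genes behaved unlike one another. Cpt1a was highest in the Guca2a-expressing cluster in 3 libraries, at 154 and 134 CPM in DSS and 126 and 131 CPM in control, and in the Sult1c2-led cluster in control 1 (133 CPM). Pdk4 differed more between libraries of a group than between groups. In the surface cluster it stood at 17.6 and 54.5 CPM in DSS 1 and DSS 2 and at 12.5 and 59.2 CPM in control 1 and control 2. Angptl4 was close to nothing in absorptive cells. Colonocytes held 6 and 14 UMIs of it in DSS 1 and DSS 2 (0.506 and 0.369 CPM), and 0 and 6 in control 1 and control 2. The 0 of control 1 allows up to 0.171 CPM at 3 UMIs, for counting error only.

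**Figure D1:**
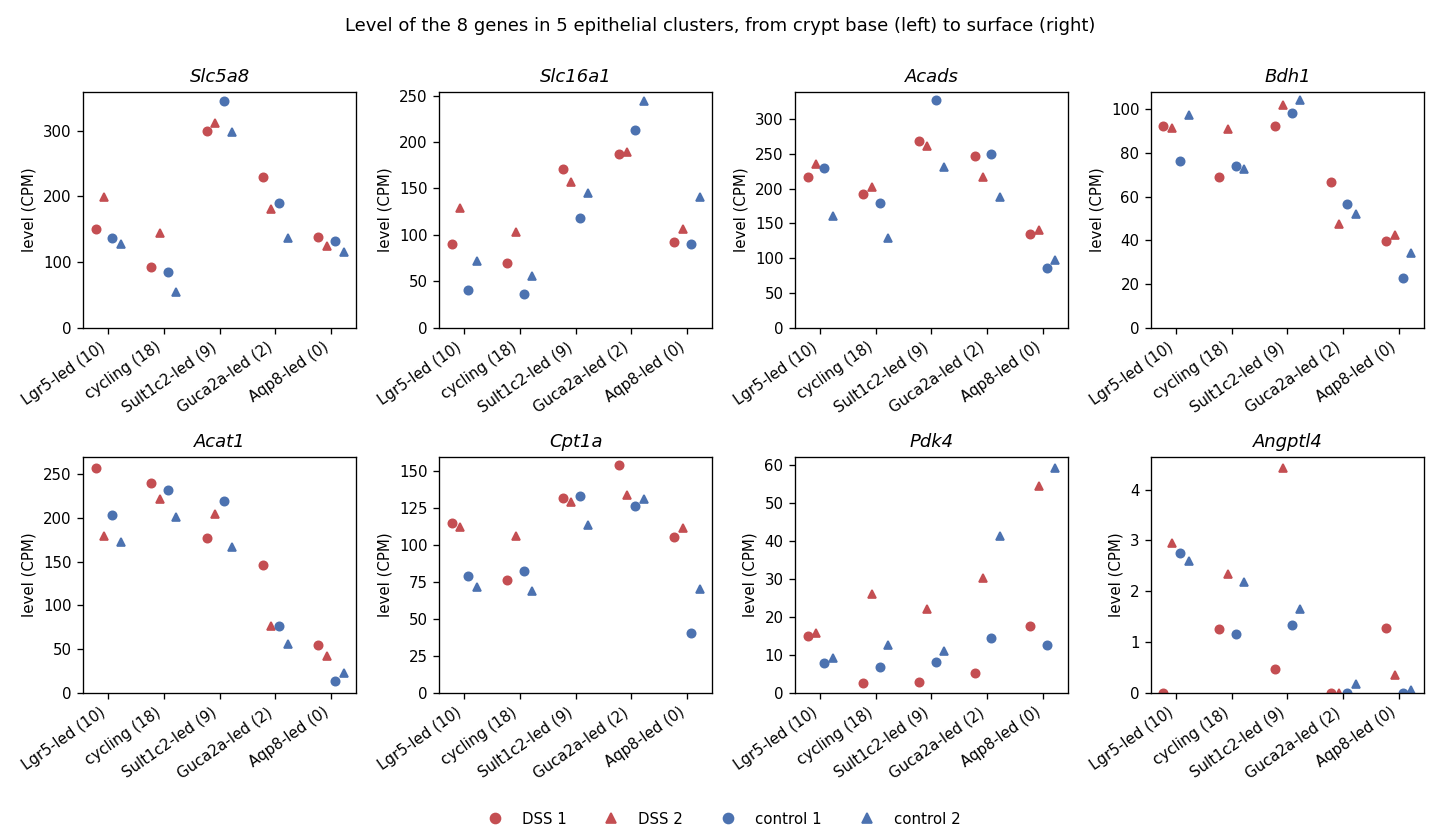
CPM of each gene (vertical axes, from 0) in 5 epithelial clusters ordered from the crypt base to the surface, with 1 point per library (DSS red, control blue, circles for replicate 1 and triangles for replicate 2). Slc5a8 and Acads are highest in the Sult1c2-led cluster, Slc16a1 in the Guca2a-expressing cluster (187 to 244 CPM), and Acat1 is lowest in the Aqp8-expressing cluster (13.9 to 54.5 CPM).

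Outside the absorptive lineage the members differed in where they were highest. Over the 12 classes with at least 30 cells in every library, 5 of the 8 genes had their highest mean in an epithelial class. Slc5a8, Slc16a1, Acads and Cpt1a were highest in colonocytes and Acat1 in progenitors. The exceptions were Bdh1 (smooth muscle), Pdk4 (glia) and Angptl4 (fibroblasts). Acads averaged 203 CPM over the 4 colonocyte libraries, and in progenitors it stood at 201 and 209 CPM in DSS and 214 and 147 CPM in control. With counts scaled per cell it was highest in progenitors.

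Bdh1 reached its highest level of any tested class or absorptive cluster in a single cluster of muscle. Smooth muscle cluster 22, led by Actg2, Cnn1 and Des, had 181 and 257 CPM in DSS and 255 and 219 CPM in control. The other cluster named smooth muscle, cluster 19, had 10.4 and 7.61 CPM in DSS and 8.14 and 13.5 CPM in control. These 2 clusters did not overlap in any library. Cluster 12 also reached 7 of 7 smooth muscle markers. It stayed unnamed because its leading genes held more pericyte markers, and its Bdh1 level is not given here. The groups overlapped in cluster 22. Free RNA from colonocytes can enter any droplet, so levels outside the epithelium were set against 6 genes restricted to colonocytes (Slc26a3, Aqp8, Car4, Guca2a, Lypd8 and Krt20). In smooth muscle these genes had a median of 0.0259 and 0.0905 of their colonocyte level in DSS and 0.0616 and 0.0714 in control. Bdh1 stood at 1.92 and 2.12 of its colonocyte level in DSS and 3.88 and 1.75 in control.

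Slc5a8 in T cells lay near that background. Its level there was 0.0205 and 0.0271 of that in colonocytes in DSS and 0.0310 and 0.119 in control, against medians of 0.0257 and 0.0344 in DSS and 0.0206 and 0.0905 in control for the restricted genes. It exceeded the highest of the restricted genes in 1 of the 4 libraries, control 2, and is read as background in T cells. Acat1 was broadly expressed, at 45.3 and 49.2 CPM in DSS and 55.0 and 50.2 CPM in control in T cells, which lies above the highest restricted gene in every library. Cpt1a stood in a narrow range in fibroblasts, at 41.2 and 43.3 CPM in DSS and 42.7 and 45.3 CPM in control.

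By the mean of the 4 libraries Pdk4 was highest in enteric glia, the support cells of gut neurons, at 64.2 and 34.8 CPM in DSS and 46.3 and 36.3 CPM in control. The 2 groups overlapped there. In control 2 colonocytes were above glia, at 48.2 CPM. Angptl4 stood at 26.4 and 14.2 CPM in DSS fibroblasts and 23.2 and 7.40 CPM in control fibroblasts, also with overlap. Lipoprotein lipase (Lpl), the enzyme that Angptl4 inhibits, stood in the same fibroblasts at 253 and 52.9 CPM in DSS and 241 and 78.7 CPM in control. In monocytes or macrophages Lpl stood at 244 and 229 CPM in DSS and 166 and 127 CPM in control. In fibroblasts both Angptl4 and Lpl were higher in the libraries numbered 1 than in those numbered 2, in both groups.

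**Figure D2:**
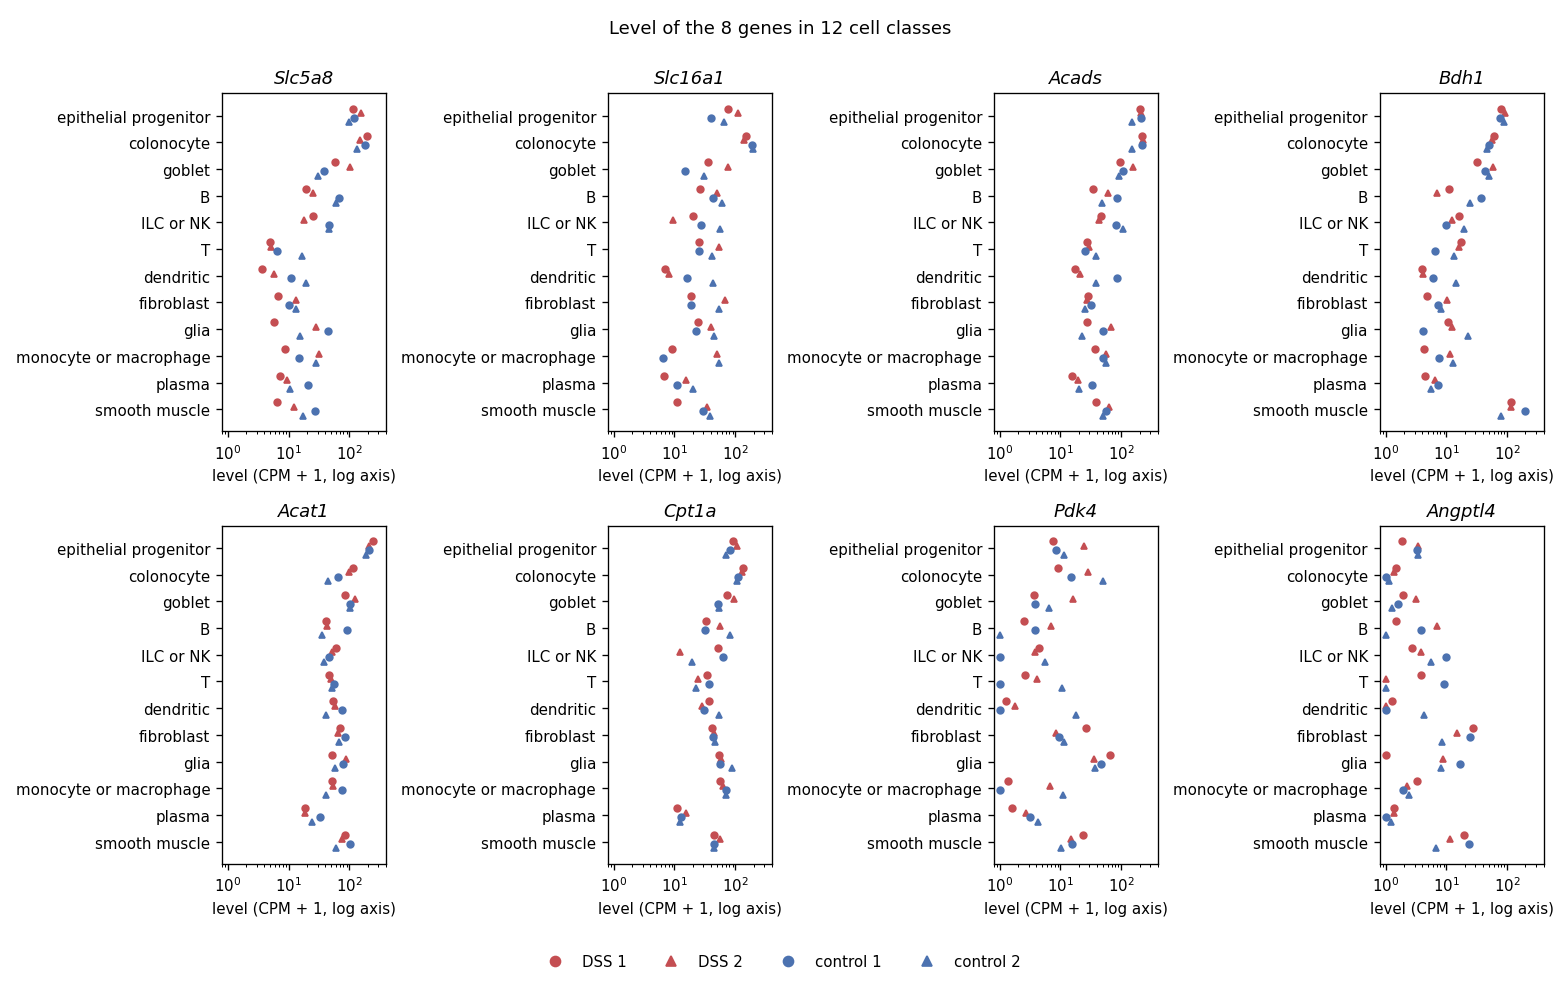
CPM plus 1 (horizontal log axes) of each gene in the 12 cell classes with at least 30 cells in every library, with 1 point per library. Bdh1 is high in smooth muscle as well as epithelium, and by the mean of 4 libraries Pdk4 is highest in glia (34.8 to 64.2 CPM, below colonocytes in control 2) and Angptl4 in fibroblasts (7.40 to 26.4 CPM).

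The genes that tracked each member most closely over the 12 class means were found among 10865 genes with at least 20 CPM in a class. They describe likeness over 12 points that share the same 4 libraries. For Slc5a8 they were Ociad2, Krt19 and Aoc1 (Pearson r = 0.985, 0.983 and 0.979 of log2 CPM), and for Acads the respiratory chain genes Uqcrfs1 and Uqcrc2 and the intestinal transcription factor gene Cdx2 (0.978, 0.978 and 0.973). For Slc16a1 they were Rmdn3, Rhot2 and Dnmbp (0.951, 0.942 and 0.940), and for Bdh1 Nqo1, Timm17a and Ndufa11 (0.944, 0.940 and 0.922). For Acat1 they were Med19, Prdx2 and Mrpl2 (0.961, 0.958 and 0.957), for Cpt1a Vapa, Zbtb7a and Ptgr2 (0.977, 0.961 and 0.960), and for Pdk4 Lgalsl, Dpyd and Sox13 (0.956, 0.949 and 0.948). For Angptl4, itself under that minimum, they were Ptar1, Acadsb and Zhx3 (0.972, 0.969 and 0.967). Among the members, Slc5a8 and Acads were most alike (r = 0.946), and Slc5a8 and Angptl4 least (r = -0.35).

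Next the DSS libraries were compared with the control libraries within each class, to ask whether 2 days of DSS changed these genes. In the edgeR test, 0 of 8 members passed in epithelial progenitors (1.68% of 13103 genes passed there), 0 of 8 in colonocytes (0.0422% of 14208) and 0 of 7 tested in goblet cells (0% of 12871). In the 9 other classes no member passed, while 0.0217% of genes passed in innate lymphoid or natural killer cells, 0.00965% in plasma cells and 0% in the other 7. Over the 12 classes 75 pairs of member and class were tested and 11 had an unadjusted p under 0.05, while 7.05% of all pairs of gene and class did. DESeq2 passed 3 pairs, Acat1 in colonocytes (3.41% of genes passed) and Slc5a8 and Slc16a1 in goblet cells (3.22%).

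Acat1 in colonocytes stood at 115 and 99.2 CPM in DSS 1 and DSS 2 and at 64.5 and 43.9 CPM in control 1 and control 2. The groups did not overlap, and 28.1% of all genes tested lay apart in that direction. The log2 fold change was 0.90 (SE 0.23, edgeR adjusted p = 0.175). With DESeq2 it passed (adjusted p = 0.0444), and without control 1 it was 1.16 (edgeR adjusted p = 0.0207). With 1 library left in a group, as in each value here that leaves one out, the spread comes from the other group alone and the lone library is assumed to vary like it. The class was made of different clusters in the 2 groups, with cluster 8 at 17.3% and 60.2% of colonocytes in DSS 1 and DSS 2 against 0.311% and 3.48% in control 1 and control 2. Within the surface cluster 0 alone the log2 fold change was 1.20 (SE 0.28, adjusted p = 0.139, with 0.0199% of genes passing). Cpt1a stood there at 105 and 111 CPM in DSS and 40.8 and 70.3 CPM in control (0.79, SE 0.26, adjusted p = 0.218). Acads, Acat1, Bdh1 and Cpt1a lay apart in that cluster with DSS higher, as did 36% of all genes, and no member lay apart with DSS lower (15.4%).

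Of the other members in colonocytes, Slc16a1 lay lower in DSS, at 149 and 138 CPM against 187 and 196 CPM in control (log2 fold change -0.51, SE 0.22, edgeR adjusted p = 0.337). The groups did not overlap, with 19% of genes apart in that direction. Cluster 2, where Slc16a1 was highest, made up 43.4% and 7.00% of colonocytes in DSS and 63.3% and 42.8% in control. The part of that in the Slc16a1 result was not tested. Slc5a8 stood at 194 and 151 CPM in DSS and 178 and 132 CPM in control (0.07, SE 0.24, adjusted p = 0.922). Acads, Bdh1 and Cpt1a had log2 fold changes of 0.18 to 0.21. Pdk4 stood at 8.18 and 27.0 CPM in DSS and 14.1 and 48.2 CPM in control (-0.91, SE 0.69, adjusted p = 0.584), and its direction turned without control 2 (0.33), while without DSS 2 it was -2.07 (adjusted p = 0.00685). In all, 5 members lay apart with DSS higher (28.1% of genes) and 1 with DSS lower (19%). Angptl4 is among the 5, at a log2 fold change of 2.12 (SE 0.98, edgeR adjusted p = 0.369) on the few UMIs given above.

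In epithelial progenitors Slc16a1 stood at 76.1 and 108 CPM in DSS and 38.9 and 64.8 CPM in control (log2 fold change 0.90, SE 0.27, edgeR adjusted p = 0.134). The groups did not overlap, as for Acat1 and Cpt1a, against 18.3% of all genes with DSS higher. No member lay apart with DSS lower, against 25% of genes. Without control 2, with the spread taken from the DSS libraries alone, the log2 fold change of Slc16a1 was 1.17 (adjusted p = 0.0230). Without the list genes in the clustering it was 1.33 (adjusted p = 0.0314), but over another set of cells. The progenitors there took in a cluster with Acsm3 among its leading genes. With doublets included, that cluster held 296 and 438 cells in DSS and 1731 and 648 in control. Pdk4 stood at 6.69 and 23.9 CPM in DSS and 7.44 and 10.5 CPM in control (0.97, SE 0.42, adjusted p = 0.318). Its value rested on DSS 2, without which it was -0.38, and without DSS 1 it was 1.44 (adjusted p = 0.00839). Progenitors numbered 39 and 157 in DSS 1 and DSS 2 against 1483 and 630 in control 1 and control 2, and cluster 10 made up 38.5% and 28.0% of them in DSS against 77.9% and 69.2% in control. Colonocyte markers in this class summed to more in both DSS libraries than in both controls (values above), and the part of that in these results was not tested.

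Goblet cells, which secrete mucus, had the largest folds of both butyrate carriers among the 3 epithelial classes. Slc5a8 stood at 57.4 and 103 CPM in DSS and 37.9 and 29.4 CPM in control (log2 fold change 1.32, SE 0.30, edgeR adjusted p = 0.174, DESeq2 adjusted p = 0.0128). Slc16a1 stood at 34.4 and 74.6 CPM in DSS and 13.8 and 29.8 CPM in control (1.46, SE 0.38, edgeR adjusted p = 0.208, DESeq2 adjusted p = 0.0313). Cpt1a stood at 71.0 and 92.6 CPM in DSS and 50.5 and 53.4 CPM in control (0.77, SE 0.20, edgeR adjusted p = 0.203). In these 3 genes the groups did not overlap, against 13.1% of genes with DSS higher, and 0 lay apart with DSS lower (27.2%). Over all genes of the class, 1764 had an unadjusted p under 0.05. All 11 colonocyte markers were detected in goblet cells of every library, and their sum was 4855 and 9835 CPM in DSS and 1785 and 3799 CPM in control. The restricted genes had a median of 0.0869 and 0.213 of their colonocyte level in DSS goblet cells and 0.0176 and 0.0848 in control. For Slc5a8 that ratio was 0.296 and 0.680 in DSS and 0.214 and 0.223 in control, above the highest restricted gene in all 4 libraries. The part of these markers in the result was not tested.

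**Figure D3:**
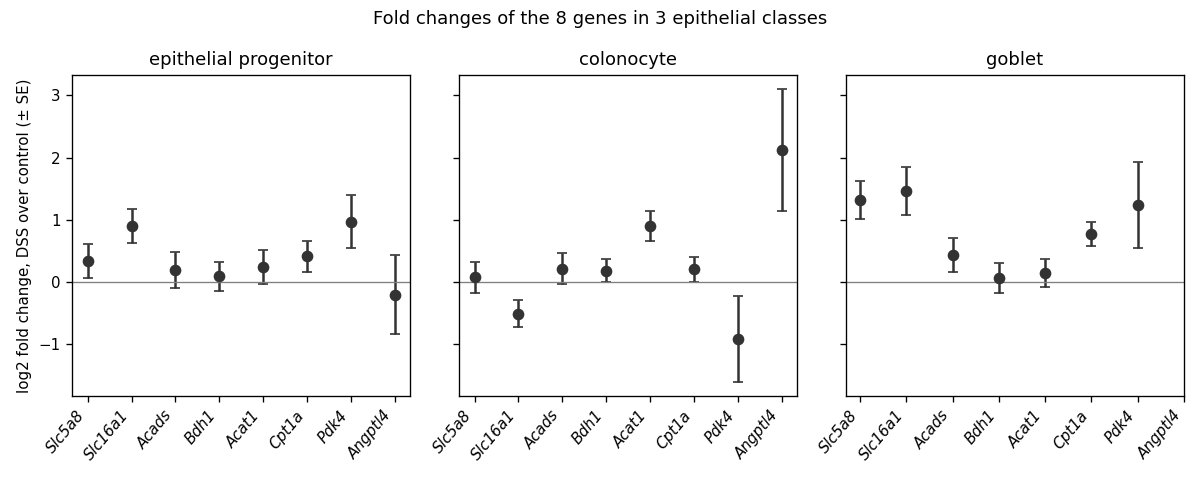
Log2 fold change of DSS over control (vertical axis; error bars are the SE of the edgeR fit over 2 libraries per group) for each gene in 3 epithelial classes. None passed the adjusted threshold of 0.05. Slc16a1 lies at 0.90 in progenitors, -0.51 in colonocytes and 1.46 in goblet cells, and Angptl4 has no goblet value because its counts did not pass the filter.

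Outside the epithelium the number of members whose groups lay apart differed between classes. In B cells Slc5a8 alone of 5 members tested lay lower in DSS, where 14.9% of genes lay lower and 13.9% higher. The restricted colonocyte genes had medians there of 0.0640 and 0.190 of the colonocyte level in DSS and 0.168 and 0.359 in control. In smooth muscle Slc5a8 lay lower and Cpt1a higher (12.3% and 8.87% of genes). In monocytes or macrophages Cpt1a lay lower (12% lower, 13.3% higher). In plasma cells 3 of 6, Slc5a8 among them, lay lower (32.6% of genes lower, 3.17% higher). In innate lymphoid or natural killer cells 2 of 4 lay lower and 1 higher (20% and 10.1%), and in T cells 1 of 5 lay lower and 1 higher (11.6% and 9.38%). No member lay apart in fibroblasts (17.5% lower, 7.02% higher) or glia (14.8% and 12.2%). In dendritic cells 2 of 4 lay lower, where 18.4% of genes lay lower and 12.8% higher. Slc16a1 stood there at 5.86 and 7.16 CPM in DSS and 15 and 42.1 CPM in control, from 3 to 25 UMIs in a library (log2 fold change -2.27, SE 0.55, edgeR adjusted p = 0.259). The restricted colonocyte genes were also lower in DSS 2 than in control 2 in dendritic cells, with medians of 0.0143 and 0.0238 of the colonocyte level in DSS and 0.0151 and 0.186 in control. In B cells, plasma cells and smooth muscle Slc5a8 lay above the highest restricted gene in 2 of the 4 libraries. The part of the restricted genes in these results was not tested.

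In fibroblast cluster 6, with Cxcl13, Igfbp3 and Adamdec1 among its leading genes, Angptl4 stood at 27.6 and 31.7 CPM in DSS (67 and 59 UMIs) and 9.58 and 3.30 CPM in control (12 and 6 UMIs). The groups did not overlap, and the log2 fold change was 2.38 (SE 0.51, edgeR adjusted p = 0.495). Of all genes, 7.74% lay apart there with DSS higher and 22.3% with DSS lower, and 0% passed. This cluster was singled out after its values were seen. Over all fibroblasts the groups overlapped.

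Within the unnamed Sult1c2-led cluster, where Slc5a8 and Acads were highest, 7 of the 8 genes overlapped between the groups. Slc16a1 lay apart with DSS higher (values above; 12.5% of genes did, and 12.8% with DSS lower) at a log2 fold change of 0.33 (SE 0.22). The log2 fold changes of the 8 genes ranged from -0.09 for Acads (SE 0.29) to 0.75 for Angptl4 (SE 0.93), and 0 of the 8 passed, with 0% of all genes. For Slc5a8 the log2 fold change was -0.08 (SE 0.25). The cluster held 357 and 539 cells in DSS and 601 and 178 in control.

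A score from surface and crypt genes was used to place progenitors and colonocytes on a crypt axis in 5 bins, with edges set in control cells. The unnamed Sult1c2-led cluster, where Slc5a8 and Acads were highest, is not on this axis. Bins 2, 3 and 4 had enough cells in every library to be tested. In bin 3 Slc16a1 stood at 103 and 133 CPM in DSS and 188 and 228 CPM in control (log2 fold change -0.78, SE 0.21, edgeR adjusted p = 0.207). In bin 4 it stood at 82.0 and 127 CPM in DSS and 143 and 189.7 CPM in control (-0.68, SE 0.27, adjusted p = 0.386). The groups did not overlap in either bin (25.8% and 20.8% of genes lay apart with DSS lower), while in bin 2 they did, at 163 and 141 CPM in DSS and 135 and 167 CPM in control (0.23, SE 0.22). Slc5a8 was nearly level in bin 3, at 138 and 131 CPM in DSS and 138 and 141 CPM in control. With the Sult1c2-led cluster added, Slc5a8 in bin 2 stood at 260 and 237 CPM in DSS and 308 and 213 CPM in control. Slc16a1 in that bin 2 stood at 173 and 149 CPM in DSS and 132 and 138 CPM in control (0.37, SE 0.21, edgeR adjusted p = 0.770). Its groups did not overlap there, and the share of all genes apart is not given. In bins 3 and 4 Slc16a1 was then at -0.78 and -0.67.

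Acat1 went the other way in bin 3, at 71.4 and 84.9 CPM in DSS and 44.0 and 58.4 CPM in control (0.65, SE 0.20, adjusted p = 0.266), with 19.5% of genes apart with DSS higher. Cpt1a lay apart with DSS higher in bins 2 and 4, where 11.4% and 22% of genes did. In bin 2 the CPM of Bdh1 lay apart with DSS lower, as for 40% of genes, but its fitted log2 fold change was 0.0363 (SE 0.18), so that its direction turned with the scaling. No member passed in bins 2, 3 and 4, where 0.127%, 0.381% and 0.183% of genes did. With 3 broader bins Slc16a1, Slc5a8 and Cpt1a passed in the bin nearest the crypt, where 18.2% of all genes passed too. Cells in bin 3 were deeper in DSS, with medians of 15155 and 14701 UMIs against 5370.5 and 7914 in control. Mitochondrial transcripts made up a median of 14.3% and 4.51% of UMIs there in DSS 1 and DSS 2 and 16.0% and 13.8% in control 1 and control 2. Cluster 8 made up 11.6% and 62.2% of the bin's cells in DSS, against 4.89% in control 2 and no cells in control 1, and cluster 2 made up 23.9% and 5.74% in DSS and 64.9% and 58.6% in control. Their part in the result was not tested.

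**Figure D4:**
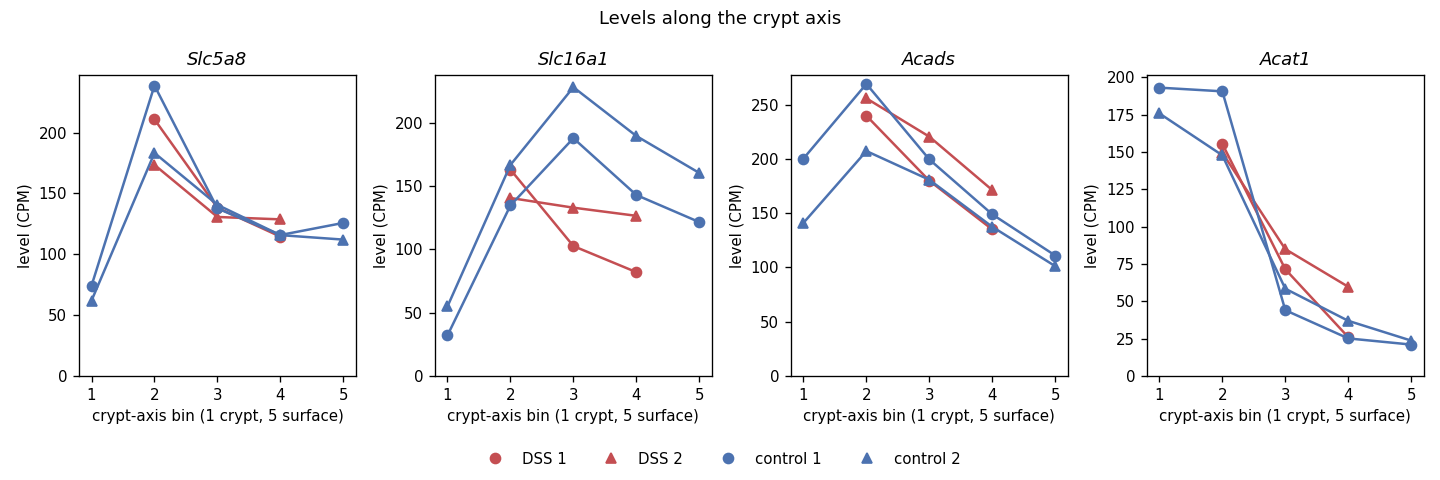
CPM (vertical axes, from 0) of 4 genes in bins of the crypt axis, from 1 (crypt) to 5 (surface), with 1 line per library; DSS is drawn for bins 2 to 4, since bins 1 and 5 held under 30 cells in a DSS library. Slc16a1 in bin 3 lies at 103 and 133 CPM in DSS and at 188 and 228 CPM in control, while the Slc5a8 lines lie close together there. Cells of the Sult1c2-led cluster are not included.

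Because Slc16a1 lay higher in DSS in progenitors and lower in colonocytes, the difference between the 2 responses was tested with the library as a block. It passed for 3 of the 8 members, while 15.1% of all 15098 genes passed. For Slc16a1 the log2 fold change in colonocytes was 1.45 below that in progenitors (difference -1.45, SE 0.23, adjusted p = 0.000561). For Pdk4 the difference was -1.48 (SE 0.43, adjusted p = 0.0261), and for Acat1 it was 0.65 (SE 0.21, adjusted p = 0.0474). For Slc5a8 it was -0.32 (SE 0.25, adjusted p = 0.439), and for Acads, Bdh1 and Cpt1a it lay between -0.25 and 0.06. Without DSS 2 it passed for none of the 8, with -1.17 for Slc16a1 (adjusted p = 0.140, with 0.347% of genes passing). The difference for Pdk4 did not pass without control 2 (-0.60, adjusted p = 0.318), without DSS 1 (adjusted p = 0.136) or without DSS 2 (adjusted p = 0.551). That for Acat1 did not pass with any 1 of the 4 libraries left out. Set against the Sult1c2-led cluster in place of progenitors, Slc16a1 lay at -0.70 for cluster 0 and -0.79 for cluster 2 (adjusted p = 0.383 and 0.116, with 0.397% and 0.683% of genes passing). The clusters that make up colonocytes and progenitors differed in their shares between libraries (values above). The part of that in these differences was not tested.

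Other genes of the same pathways were counted from 7 lists. In the 3 epithelial classes 1 list gene passed the edgeR test, Acot1, a long-chain acyl-CoA thioesterase among the PPAR targets. In progenitors, where 1.68% of 13103 genes passed, it stood at 8.36 and 3.91 CPM in DSS and 39.7 and 23.7 CPM in control. Its log2 fold change was -2.60 (SE 0.46, edgeR adjusted p = 0.0219). Its close paralog Acot2 may share reads with it. Progenitors numbered 39 and 157 in DSS, and cluster 10 was a smaller part of them than in control (shares above). The part of that in the Acot1 result was not tested. Of 18 PPAR genes tested in progenitors Acot1 was the 1 that passed, with a list median of 0.14 (-0.01 over all genes). In colonocytes 0 of 23 passed, with a list median of -0.24 (0.00170 over all genes). In goblet cells 0 of 19 passed, with 5 at an unadjusted p under 0.05 and a median of 0.47 (0.00130 over all genes).

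Of the acyl-CoA activation and beta-oxidation list, 0 of 27 genes passed in progenitors, 0 of 26 in colonocytes and 0 of 26 in goblet cells, with medians of 0.12, 0.15 and 0.28. At an unadjusted p under 0.05 there were 9, 3 and 5, and of all genes 14.7%, 14.9% and 13.7% were under it in the same order of classes. Of the ketone body list 0 of 8 passed in each of the 3 classes, with 2, 1 and 0 at an unadjusted p under 0.05 and medians of 0.08, 0.03 and 0.00131. Of the short-chain fatty acid transport list 0 of 8, 0 of 11 and 0 of 9 passed in progenitors, colonocytes and goblet cells, with medians of 0.19, -0.15 and 0.72. At an unadjusted p under 0.05 there were 2, 2 and 3. Of the pyruvate entry list 0 of 15 passed in each class, with 2, 1 and 2 at an unadjusted p under 0.05. Of the lipoprotein lipase list 0 of 7 passed in each, with 1, 1 and 3. Of the citric acid cycle list 0 of 17 passed in each, with 0 at an unadjusted p under 0.05 in all 3. Over the 7 lists DESeq2 called 2 of 97 genes in progenitors, 4 of 104 in colonocytes and 8 of 98 in goblet cells, where it passed 2.52%, 3.41% and 3.22% of all genes.

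Among the PPAR receptor genes, Ppara stood at 7.17 and 4.61 CPM in DSS and 8.56 and 7.43 CPM in control colonocytes. Pparg stood there at 59.4 and 85.6 CPM in DSS and 79.1 and 137 CPM in control. The groups did not overlap for Ppara, with 19% of colonocyte genes apart with DSS lower, and overlapped for Pparg. Neither gene passed the test in the 3 epithelial classes.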

How the data were processed

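Whole-number UMI counts per gene and barcode were deposited by the authors. Per the submitters' processing notes, reads went through Cell Ranger 6.1.1 on GRCm38, with settings not given in the sources used here. Per the labels' protocols, capture used a version 3 and library construction a version 2 3' kit, a difference not resolved here. The 8 genes, the lists and the markers were chosen with earlier results of these data known.

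Barcodes with at least 500 UMIs, 250 genes and at most 25% mitochondrial UMIs were kept (44356 of 49851), and predicted doublets (2.92% to 5.38% of a library, Scrublet in scanpy 1.11.5) were removed after clustering. Total depth was 108941875 and 109472082 UMIs in DSS and 101051573 and 101834659 in control. Cells were clustered on 2000 variable genes, 40 components and 20 neighbours (leidenalg 0.10.2, resolution 1, no integration). A class name needed 3 markers, each found in at least 15% of a cluster at 2-fold the level elsewhere, and names stand for marker likeness. Names were rebuilt here, so classes may differ from the study's own.

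UMIs were summed per library and class. DSS was compared with control by the two-sided edgeR 4.0.16 quasi-likelihood F test in R 4.3.3 (TMM, filterByExpr, at least 30 cells per library) with Benjamini-Hochberg adjustment over all genes tested and a threshold of 0.05. SE values are those of the fit. The difference between colonocytes and progenitors was fitted with library as block. Alternatives were DESeq2 1.42.0, no filter, each library left out, a replicate block, resolution 2, list genes left out of clustering, doublets kept, a 10% mitochondrial limit, 3 bins and a surface-only score. Tests within clusters 0, 2 and 9 and a crypt axis with cluster 9 added were chosen after seeing the data. The named genes were the 8, genes of the lists that passed, genes fixed by name (Acsm3, Bsg, Ppara, Pparg and Lpl; a further one is not reported here) and the 3 genes most like each of the 8. Of the cells on the crypt axis, 24.0% lay within 0.05 of a bin edge in score. Intervals and the 3-UMI limit for a 0 cover counting error only. The tests were checked on simulated data.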

Additional observations from a re-analysis of the deposited data

Results flagged for a closer look

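The DSS responses of 3 genes differed between colonocytes and epithelial progenitors by the test of the difference itself (edgeR, library as block). The log2 fold change of Slc16a1 in colonocytes minus that in progenitors was -1.45, that of Pdk4 was -1.48 and that of Acat1 was 0.65. The test passed 15.1% of all genes. It passed for 2 of the 8 without control 1, for 1 without control 2, for 1 without DSS 1 and for 0 without DSS 2. Acat1 passed under 0 of the 9 alternatives (adjusted p = 0.0557 to 0.384). The Pdk4 difference ran from -2.33 to 0.0834 over the alternatives and did not pass with control 2, DSS 1 or DSS 2 left out, and that of Slc16a1 did not pass without DSS 2 or in either contrast of a colonocyte cluster with the Sult1c2-led cluster. The progenitors held 39 and 157 cells in DSS against 1483 and 630 in control. In both classes the shares of the clusters within them differed between libraries (values above), and the part of that was not tested.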

How the results depend on the processing

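The count of members passing within classes (0) was 3 with DESeq2, 7 without the filter, 7 with a replicate block, 1 with list genes left out of clustering and 1 to 1 leaving out each library in turn. It was 0 at resolution 2 (where DSS 1 had 29 progenitors, so that this class was not tested), with doublets kept, at 10% mitochondrial UMIs and within clusters 0, 2 and 9. The share of all genes passing without the filter or with a replicate block is not given here. The counts under those settings are therefore not read as results about the members. The replicate number was shared by 2 pairs only. Deviations of same-numbered libraries from their group means were positively correlated in all 12 classes, at 0.184 to 0.546. The labels state no pairing, so the main tests did not use the number. What the number stands for was not tested. Within crypt bins the count (0) was 3 with 3 bins and 0 otherwise. For the difference between colonocytes and progenitors the count (3) was 1 with DESeq2, 0 for each cluster contrast against the Sult1c2-led cluster, and 0 (without DSS 2) to 2 leaving out each library. Acat1 was lost there under all 9 alternatives (adjusted p = 0.0557 to 0.384). The number of genes highest in an epithelial class (5) was the same with scaling per cell. Of 335 other values 27 changed direction. In colonocytes these were Acads -0.0316 and Bdh1 -0.0356 within cluster 2, Slc5a8 -0.0865 within cluster 0 and Cpt1a -0.00423 at 10% mitochondrial UMIs. Leaving out a library, Pdk4 in colonocytes ran from -2.07 to 0.33 and Slc5a8 from -0.0873 to 0.26. In progenitors Acads ran from -0.15 to 0.61, Pdk4 from -0.38 to 1.44, Bdh1 from -0.0503 to 0.18 and Angptl4 from -1.44 to 0.10. In goblet cells Pdk4 ran from -0.26 to 1.92 and Bdh1 from -0.25 to 0.29. For the difference, Acads ran from -0.26 to 0.18, Slc5a8 from -0.60 to 0.0783, Bdh1 from -0.00356 to 0.20 and Cpt1a from -0.56 to 0.0532. Acads was 0.0235 without the filter and Bdh1 -0.21 at resolution 2, on those 29 progenitors. Cluster 0 minus cluster 9 gave Acads 0.45, Pdk4 0.0834 and Cpt1a 0.72, and cluster 2 minus cluster 9 gave Slc5a8 0.23, Bdh1 -0.0427 and Angptl4 -2.81. List genes passing in the epithelial classes (1) numbered 0 at resolution 2, without the progenitors that gave the call, 14 with DESeq2, 28 with a replicate block and 29 without the filter. The counts of list genes with a replicate block and without the filter also stand without the share of all genes. The cause of these changes was not tested. Precision is limited by 2 libraries a group and by 39 DSS 1 progenitors.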

Other observations

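A cluster of 50 kept cells came from control 2 alone. It was led by S100g, Sis, Fabp6 and Apoa1 and stayed unnamed. Its levels were 27.5 CPM for Slc5a8, 166 CPM for Cpt1a and 98.5 CPM for Bdh1.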
